A study of Mus musculus with 4 samples.

Results

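The genes described here are 9 genes for extracellular matrix proteins of the kind that cells lay down during repair, namely the tenascins *Tnn*, *Tnc* and *Tnxb*, the fasciclin-domain proteins *Postn* and *Tgfbi*, fibronectin (*Fn1*), *Sparc*, and the thrombospondins *Thbs1* and *Thbs2*. They were 9 of the 32285 genes counted, and were selected by symbol on measured values of these libraries, so that their levels and differences are given as a description, with no test. Callus cells of fractured tibiae were profiled by single-cell RNA sequencing (scRNA-seq), in which each captured RNA molecule carries a unique molecular identifier (UMI). All mice were wild-type C57BL/6J, 3 months old. Control mice received vehicle, and RA mice received K/BxN serum, a serum transfer that brings on arthritis. Callus was taken at 4 and 7 days post fracture (dpf), and the 4 libraries are called control_4d, control_7d, RA_4d and RA_7d. Each came from 1 pool of calluses (4 per pool in the series' description, 3 per group in the paper's methods). With 1 library per group there were no replicates, and condition and library batch cannot be told apart. Intervals are at the 95% level and cover counting error only.

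Tenascins are large oligomeric glycoproteins that modulate how cells attach to fibronectin and collagen. Tenascin-C (*Tnc*) appears in embryonic and wounded tissue, tenascin-W (*Tnn*) is known from periosteum and developing bone, and tenascin-X (*Tnxb*) binds collagen fibrils in loose connective tissue. Periostin (*Postn*) and TGFBI bridge integrins and collagen, fibronectin forms the provisional matrix onto which collagen is laid, SPARC (osteonectin) is a collagen-binding protein abundant in bone, and thrombospondins bind growth factors, proteases and the receptors CD47 and CD36.

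After the cell filter the libraries held 5470, 7676, 4110 and 8223 cells (control_4d, control_7d, RA_4d and RA_7d, the order used for every list of 4 values). Their median depth lay between 16093.5 and 17631.5 UMIs, and pairs of libraries shared 5 to 15 barcodes. Cells were clustered with the 9 genes left out, and clusters were named from marker genes. The mesenchymal classes resembled common mesenchymal cells (cycling), committed mesenchymal progenitors, osteochondral progenitors, MSC-like fibroblast precursors and fibroblasts. They are called by these names as "-like" classes, and together they made up 862, 3011, 724 and 3752 cells. Tenocyte precursor-like cells (133, 229, 93 and 367), led by *Kera*, *Fmod* and *Tnmd*, and Schwann-like cells (29, 66, 20 and 185), named from 9 glial markers that were all detected, were kept apart. Osteochondral cells numbered 1, 214, 0 and 118, so their levels were read at 7 dpf. The committed cluster was led by *Tnn* and *Tnc* although neither had been used to form it, so the level of these genes there is a property of the cluster and not a separate finding. A level is the UMIs of a gene per 1000000 UMIs (CPM), both summed over the cells of a class in a library, and the mesenchymal sum is that level over all 5 mesenchymal classes.

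In the mesenchymal sum at 7 dpf, *Tnn* and *Tnc* were lower and *Tnxb* was higher in the RA library, while *Postn* (ratio 0.975), *Fn1* (0.963) and *Thbs2* (0.963) lay close to control. *Tnn* was at 127, 261, 101 and 76.8 CPM. It was highest in control_7d and lowest in RA_7d, with an RA to control ratio of 0.294 (0.286 to 0.302) at 7 dpf and 0.800 (0.758 to 0.844) at 4 dpf. *Tnc* was at 294, 541, 293 and 214 CPM, with ratios of 0.395 (0.388 to 0.401) at 7 dpf and 0.996 (0.964 to 1.03) at 4 dpf. Both genes thus stood highest in the control callus of 7 dpf, although with looser cell limits and mesenchymal cells taken by a marker gate the log2 ratio of *Tnc* in control_7d to control_4d was -0.06 in place of 0.88. *Tnxb* was at 286, 89.97, 111 and 278 CPM. It had the reverse arrangement, with high levels in control_4d and RA_7d, and its RA to control ratio was 0.387 (0.370 to 0.405) at 4 dpf and 3.09 (3.01 to 3.18) at 7 dpf.

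**Figure D1:**
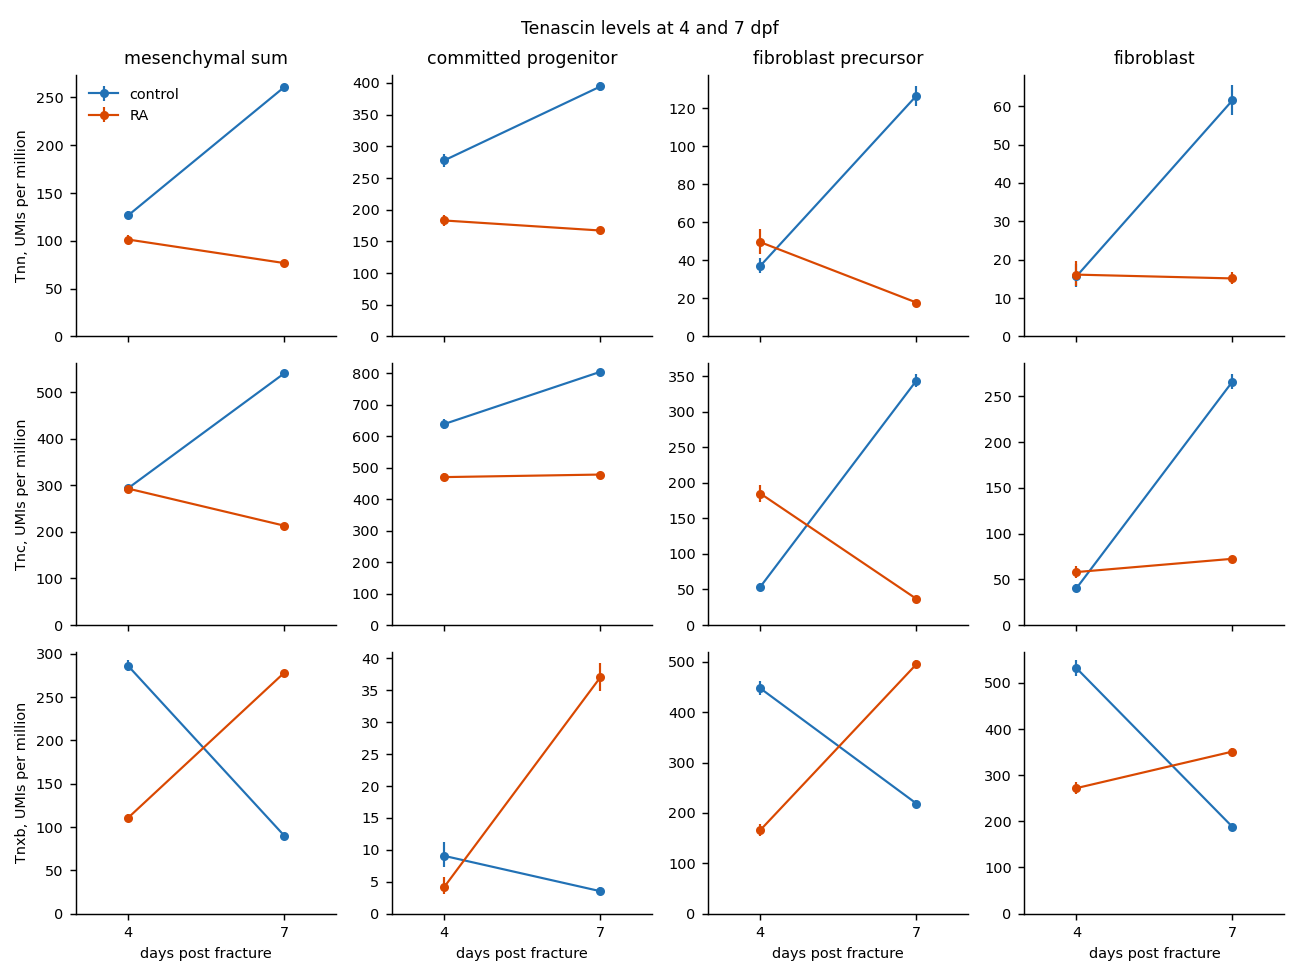
Levels of *Tnn*, *Tnc* and *Tnxb* (CPM with 95% counting intervals) at 4 and 7 dpf in control and RA libraries, in the mesenchymal sum and in committed progenitor-, fibroblast precursor- and fibroblast-like cells. In the sum, control runs from 127 to 261 CPM for *Tnn* between 4 and 7 dpf while RA runs from 101 to 76.8, and *Tnxb* crosses over, from 286 to 89.97 in control and from 111 to 278 in RA. The classes are from integrated libraries.

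A gene was counted as apart when it differed at least 2-fold between 2 libraries, on a log2 scale with 1 CPM added, among genes that reached 50 UMIs over the pair. All 9 genes passed that filter in the mesenchymal sum. At 7 dpf, 1 of the 9 was at least 2-fold higher in RA (*Tnxb*), where 1.70% of 17155 genes were, and 2 were at least 2-fold lower (*Tnn* and *Tnc*), where 1.24% were. At 4 dpf, none was 2-fold higher, against 0.765% of 13989 genes, and *Tnxb* was 2-fold lower, against 0.944%. From 4 to 7 dpf in control, *Tnn* was at least 2-fold higher (background 2.10% of 15882 genes) and *Tnxb* lower (1.59%). From 4 to 7 dpf in RA, *Tnxb* was at least 2-fold higher (1.97% of 16204 genes) and none was lower (1.36%). The 1 CPM added keeps weakly expressed genes short of 2-fold, and among the 3714 genes that reached 50 CPM in either of the 7 dpf libraries 2.83% were higher and 1.21% lower in RA. Since the genes were selected on these contrasts, the counts do not bear on whether matrix genes as a group stand apart. The comparisons of RA with control at 7 dpf and of control over time share the control_7d library, as those of RA over time share RA_7d, so the patterns are not independent of each other. The median log2 ratio of the 9 genes at 7 dpf was -0.05, and that of all genes -0.04.

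The regions just upstream of *Tnc* and *Tnxb*, from RefSeq on GRCm38.p6, and that of *Postn* beside them, are shown for the motifs they hold. On GRCm38, *Tnc* lies at chr4:63959785-64047015, *Tnxb* at chr17:34670535-34719815 and *Postn* at chr3:54361109-54391037. Promoter entries were found for 7 of the 9 genes. Capitals mark a TATA box (TATAAA), a GC box (GGGCGG) or the core of AP-1 sites (TGANTCA), searched on both strands. The Tnc stretch is chr4:64047016-64047265 (minus strand), the Tnxb stretch chr17:34670285-34670534 (plus strand) and the Postn stretch chr3:54360857-54361106 (plus strand).
Tnc: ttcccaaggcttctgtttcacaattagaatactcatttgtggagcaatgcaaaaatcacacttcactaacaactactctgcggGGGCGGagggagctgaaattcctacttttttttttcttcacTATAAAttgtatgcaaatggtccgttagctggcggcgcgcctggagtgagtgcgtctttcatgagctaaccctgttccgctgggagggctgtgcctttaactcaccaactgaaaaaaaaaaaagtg
Tnxb: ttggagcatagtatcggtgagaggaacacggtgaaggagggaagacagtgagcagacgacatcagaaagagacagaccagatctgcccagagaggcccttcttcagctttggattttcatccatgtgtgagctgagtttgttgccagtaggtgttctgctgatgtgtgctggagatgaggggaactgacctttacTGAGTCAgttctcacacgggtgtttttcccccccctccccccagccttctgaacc
Postn: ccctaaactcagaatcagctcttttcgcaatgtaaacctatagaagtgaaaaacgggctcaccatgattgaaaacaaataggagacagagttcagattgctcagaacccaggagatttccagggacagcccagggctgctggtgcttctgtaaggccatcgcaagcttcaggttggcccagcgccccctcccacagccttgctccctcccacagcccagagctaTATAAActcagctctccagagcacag
The *Tnc* stretch held a GC box from base 84 and a TATA box from base 125, the *Tnxb* stretch an AP-1 core from base 196, and the *Postn* stretch a TATA box from base 225, counted from the first base printed. Of 32851 upstream stretches of 250 bases, 12.4% held a TATA box, 32.7% a GC box and 6.75% the AP-1 core. Within the stretches shown, *Tnc* and *Tnxb* had none of these 3 motifs in common. A second *Tnc* entry, at chr4:64046937-64047186, overlapped the stretch shown and held the same GC box from base 5 and the same TATA box from base 46. A second *Postn* entry, further upstream at chr3:54359017-54359266, held none of the motifs. *Tgfbi* had a GC box and *Thbs2* a TATA box on the opposite strand in their stretches, and that of *Sparc* held none of the motifs.

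By class, *Tnn* was highest in committed progenitors in 3 of the 4 libraries, at 278, 394, 183 and 167 CPM there. *Tnn* in osteochondral progenitors was at 331 CPM in control_7d and 184 CPM in RA_7d. In common mesenchymal cells it was at 184, 369, 89.0 and 209 CPM, in MSC-like fibroblast precursors at 37.2, 127, 49.6 and 17.9 CPM, and in fibroblasts at 15.7, 61.5, 16.1 and 15.1 CPM. In every one of these classes, taken with integration, control_7d was the highest library. Without integration *Tnn* was at 265, 287, 179 and 145 CPM in committed progenitors and 27.5, 73.3, 14.1 and 15.6 CPM in fibroblast precursors. In fibroblasts it was then at 14.8, 17.7, 14.7 and 16.4 CPM, so control_7d hardly stood apart there. At 7 dpf the RA to control ratio of *Tnn* was 0.424 (0.410 to 0.438) in committed progenitors, 0.141 (0.128 to 0.155) in fibroblast precursors and 0.246 (0.218 to 0.277) in fibroblasts. T or NK-like cells, which are not known as a source of tenascins, held *Tnn* at 3.19, 13.0, 3.31 and 3.37 CPM, from 3, 16, 6 and 8 UMIs. Called doublets stayed in, as 1, 7, 5 and 5 of these cells. Whether the UMIs were free RNA or came from doublets was not tested. These cells were shallower than the mesenchymal classes, so their CPM is a rough guide to the low values.

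*Tnc* was at 639, 805, 470.0 and 478 CPM in committed progenitors, so both RA libraries lay below both controls in that class. In fibroblast precursors it was at 53.7, 344, 185 and 36.8 CPM, which put the RA library above control at 4 dpf (ratio 3.44, 3.07 to 3.86) and below it at 7 dpf (ratio 0.107, 0.101 to 0.114). In fibroblasts it was at 40.1, 266, 57.9 and 72.4 CPM, with control_7d again standing above the other libraries. *Tnxb* was carried by other cells, at 447, 219, 166 and 495 CPM in fibroblast precursors and 532, 188, 272 and 351 CPM in fibroblasts. In committed progenitors *Tnxb* was at 9.04, 3.505, 4.18 and 37.0 CPM. The control_7d value there lay below the 6.49 CPM of T or NK-like cells of that library. The RA_7d value lay above the 3.37 CPM of those in RA_7d. T or NK-like cells were shallower, and by count control_7d held 112 *Tnxb* UMIs over 1195 committed progenitors and 8 over 160 T or NK-like cells. The 7 dpf ratio of 10.6 (8.70 to 13.0) was thus taken against a low control level, whose share of free RNA was not tested.

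These within-class values depended on how the libraries were aligned before clustering. Without integration, 1949 rather than 1195 control_7d cells were placed with committed progenitors, 317 rather than 699 with fibroblast precursors, and 300 rather than 706 with fibroblasts. The log2 ratio of RA_7d to control_7d in committed progenitors then went from -1.23 to -0.97 for *Tnn*, from -0.75 to -0.57 for *Tnc* and from 3.08 to 0.20 for *Tnxb*. In fibroblast precursors it went from -2.76 to -2.16 for *Tnn*, from -3.19 to -2.32 for *Tnc* and from 1.18 to 0.65 for *Tnxb*. In fibroblasts it went from -1.95 to -0.10 for *Tnn*, from -1.86 to -0.82 for *Tnc* and from 0.90 to -0.14 for *Tnxb*. The lower *Tnn* and *Tnc* in fibroblast precursors was therefore 2-fold or more in both arrangements, whereas *Tnn* in committed progenitors and fibroblasts, *Tnc* in fibroblasts, and *Tnxb* in committed progenitors and fibroblast precursors passed 2-fold with integration only. At 4 dpf, fibroblast precursors without integration numbered 249 in control_4d and 50 in RA_4d. They held *Tnc* at 30.2 and 29.5 CPM, *Tnn* at 27.5 and 14.1 CPM and *Tnxb* at 507 and 382 CPM. The higher *Tnc* and *Tnn* of RA_4d in that class were thus seen with integration only, while *Tnxb* was lower in RA_4d in both arrangements.

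The share of each class in the mesenchymal cells also differed between libraries. Committed progenitors made up 30.9%, 39.7%, 40.3% and 29.2% of mesenchymal cells, fibroblast precursors 31.9%, 23.2%, 21.1% and 32.4%, and fibroblasts 30.9%, 23.4%, 30.5% and 33.2%. Common mesenchymal cells made up 6.3%, 6.5%, 8.0% and 2.2%, and osteochondral progenitors 0.1%, 7.1%, 0% and 3.1%. When only the mix of classes was exchanged and the level within each class held, *Tnn* in the 7 dpf sum moved by -0.31 on the log2 scale, and when only the levels were exchanged by -1.27, against an observed -1.75. For *Tnc* these were -0.18 and -0.90 against -1.34, and for *Tnxb* 0.50 and 1.17 against 1.62. Without integration the mix alone gave -0.68 for *Tnn*, -0.54 for *Tnc* and 1.28 for *Tnxb*, and the levels alone -0.97, -0.56 and 0.43. The totals were thus nearly the same under both arrangements, and the part that fell to the mix was larger without integration for all 3 tenascins. For control_7d against control_4d with integration, the mix alone gave 0.28 (*Tnn*), 0.30 (*Tnc*) and -0.30 (*Tnxb*). The levels alone gave 0.80, 0.79 and -1.24. Without integration the mix alone gave 0.72, 0.74 and -1.26, and the levels alone 0.29, 0.36 and -0.47.

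**Figure D2:**
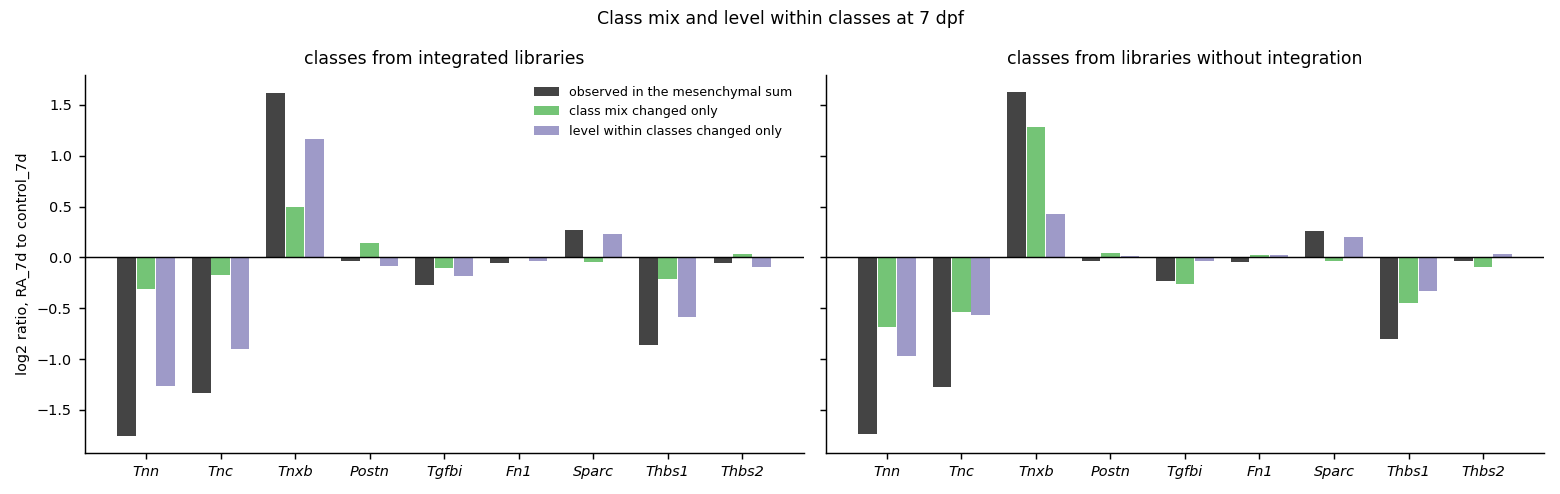
Log2 ratio of RA_7d to control_7d in the mesenchymal sum for each gene (bars from 0), as observed, with only the class mix exchanged and with only the level within classes exchanged, for classes from integrated libraries (left) and without integration (right). For *Tnxb* the mix alone gives 0.50 on the left and 1.28 on the right, while the observed value is 1.62 and 1.63.

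*Tnxb* in the mesenchymal sum moved together with the marker list of fibroblast precursors. The 7 markers of that class (*Pi16*, *Dpp4*, *Cd55*, *Sema3c*, *Dact2*, *Anxa3* and *Efhd1*) summed to 761, 270, 239 and 761 CPM in the mesenchymal sum, with none at 0 in any library. Within the fibroblast precursor class they summed to 1783, 703, 619 and 1707 CPM, so the class itself held less of its own markers in control_7d and RA_4d. The 7 markers of committed progenitors summed to 2602, 3671, 2262 and 2609 CPM in the mesenchymal sum, highest in control_7d as *Tnn* and *Tnc* were. The same list summed to 2237, 3427, 2186 and 2372 CPM within fibroblast precursors and to 1381, 2920, 1616 and 1546 CPM within fibroblasts, so control_7d stood highest inside both classes, as it did in their *Tnn* and *Tnc*. Fibroblasts held 3780.2, 1549, 3537 and 3232 CPM of their own 7 markers, lowest in control_7d. The part of these shifts in the tenascin values was not tested. Nor was that of blood cell markers, of which 6 for neutrophils summed to 20.03, 76.86, 223 and 11.8 CPM and 4 for erythroid cells to 593, 529.5, 34.5 and 396 CPM in the mesenchymal sum, so that RA_4d stood apart in both.

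In single cells, each thinned to 4000 UMIs, *Tnn* was seen in 50%, 54.8%, 32.2% and 32.4% of committed progenitors, and in 2.2%, 4.4%, 2.4% and 1.7% of T or NK-like cells, whose median depth before thinning was 6689 to 9063 UMIs against 26833 to 38237 in committed progenitors. *Tnc* was seen in 75.2%, 81.9%, 68.5% and 55.8% of committed progenitors. *Tnxb* was seen in 74.9%, 46.8%, 33.3% and 77.1% of fibroblast precursors and in 3.0%, 1.4%, 1.0% and 10.5% of committed progenitors, beside 0%, 1.9%, 0% and 1.4% of T or NK-like cells.

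*Tnn* and *Tnxb* were seldom seen in the same mesenchymal cell. Among cells with a *Tnn* UMI, 13.4%, 5.74%, 0.752% and 11.9% had one for *Tnxb*, whereas among cells without *Tnn* 55.7%, 28.7%, 26.6% and 53.6% did. *Tnc* went with *Tnn*, being seen in 67.9%, 77.0%, 67.7% and 58.8% of cells with *Tnn* and in 24.6%, 52.4%, 35.2% and 21.0% of cells without. A gap was also seen within the classes that carry *Tnxb*. In fibroblast precursors of control_7d, *Tnxb* was seen in 24.7% of 150 cells with *Tnn* and 52.8% of 549 without, and in RA_7d in 49.0% of 49 and 78.3% of 1166. In fibroblasts of control_7d these shares were 17.1% of 82 and 38.1% of 624, and in RA_7d 25.5% of 47 and 59.6% of 1197. At 4 dpf only 6 to 23 cells of these classes had *Tnn*, and in fibroblast precursors of control_4d the shares were 73.9% and 75%. In committed progenitors, where *Tnxb* was rare, it was seen in 6.50% of 354 cells with *Tnn* and 12.4% of 740 without in RA_7d, and in 1.37% of 655 and 1.48% of 540 in control_7d. *Tnc* was seen more often in cells with *Tnn* within fibroblasts of RA_7d too, in 40.4% of 47 against 12.1% of 1197. In committed progenitors the gap was narrower than in the mesenchymal cells together. There *Tnc* was seen in 78.2%, 84.0%, 75.5% and 64.7% of cells with *Tnn*. Among those without *Tnn* it was seen in 72.2%, 79.4%, 65.2% and 51.5%. The part of class differences in the gap of all mesenchymal cells was not tested. Called doublets stayed in, as 13, 114, 12 and 137 of the mesenchymal cells, and 21 of the fibroblasts of RA_7d. Their part in the cells with both genes was not tested.

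Of the fasciclin-domain proteins, *Postn* was at 3085, 4273, 2879 and 4168 CPM in the mesenchymal sum. Both 7 dpf libraries lay above both 4 dpf libraries, by 1.39 times (1.37 to 1.40) in control and 1.45 times (1.44 to 1.46) in RA, while the RA to control ratio was 0.933 (0.924 to 0.943) at 4 dpf and 0.975 (0.971 to 0.980) at 7 dpf. Within classes the 7 dpf comparison went both ways, with *Postn* at 4229 CPM in control_7d and 5265 CPM in RA_7d in committed progenitors (ratio 1.24) and at 5493 and 3388 CPM in fibroblasts (ratio 0.617). In fibroblasts the control level went from 1949 CPM at 4 dpf to 5493 CPM at 7 dpf. These class values, and those of the genes below, are from integrated classes and are not given without integration. When only the levels within classes were exchanged, *Postn* in the 7 dpf sum moved by -0.08 on the log2 scale with integration and 0.01 without. A *Postn* UMI was also seen in 14.0%, 35.6%, 6.0% and 33.7% of thinned T or NK-like cells, beside 96.2%, 98.9%, 92.1% and 98.6% of committed progenitors. Whether the former were free RNA or doublets was not tested.

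*Tgfbi* was at 233, 228, 137 and 188 CPM in the mesenchymal sum, lowest in RA_4d, where the ratio to control was 0.587 (0.562 to 0.613). That difference was larger in committed progenitors, with *Tgfbi* at 346 CPM in control_4d and 156 CPM in RA_4d (ratio 0.451, 0.424 to 0.479), and in tenocyte precursors, with 384 and 137 CPM (ratio 0.356, 0.308 to 0.410). At 7 dpf its ratio was 0.827 (0.810 to 0.845) in the sum. Myeloid cells held 77.7%, 49.6%, 82.6% and 25.1% of all *Tgfbi* UMIs of the callus, while in RA_7d committed progenitors held 24.2%, fibroblast precursors 16.3% and fibroblasts 13.3%. Macrophage-like cells were at 561, 589.9, 672 and 389 CPM. The 8 macrophage markers summed to 104, 168, 72.1 and 160.5 CPM in the mesenchymal sum, lowest in RA_4d as *Tgfbi* was, and their part in its level was not tested.

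Fibronectin was broadly expressed, with *Fn1* at 3099.6, 3526, 2068 and 3395 CPM in the mesenchymal sum. RA_4d stood lowest, at 0.667 times control_4d (0.660 to 0.675), and the ratio at 7 dpf was 0.963 (0.958 to 0.968). The lower *Fn1* of RA_4d was seen in committed progenitors (2831 CPM in control_4d and 2002 in RA_4d), fibroblast precursors (4103 and 2846) and fibroblasts (2492 and 1780.1), but in tenocyte precursors *Fn1* was at 3381 CPM in control_4d and 3340.4 in RA_4d. Schwann-like cells held *Fn1* at 106, 373, 19.6 and 226 CPM, beside 122, 146, 21.0 and 132 CPM in T or NK-like cells. The Schwann-like values at 4 dpf thus did not exceed those of the shallower T or NK-like cells. *Sparc* was at 8223, 7409, 6888 and 8909 CPM in the mesenchymal sum, and was seen in at least 99.3% of thinned cells of committed progenitors, fibroblast precursors and fibroblasts in each library. Its RA to control ratio was 0.838 (0.832 to 0.843) at 4 dpf and 1.203 (1.198 to 1.207) at 7 dpf. The higher *Sparc* of RA_7d was found in committed progenitors (ratio 1.16), fibroblast precursors (1.37), fibroblasts (1.29) and Schwann-like cells (1.562, 1.501 to 1.626), and osteochondral progenitors had 11303 CPM in control_7d and 8634 in RA_7d (0.764).

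*Thbs1* was at 146, 254, 210.1 and 139.7 CPM in the mesenchymal sum, higher in RA at 4 dpf (ratio 1.44, 1.38 to 1.51) and lower at 7 dpf (0.550, 0.538 to 0.562). In committed progenitors it was at 244, 364, 293 and 208 CPM and followed the sum. In fibroblasts it was lower in RA at both times (0.842, 0.757 to 0.935, at 4 dpf and 0.533, 0.504 to 0.564, at 7 dpf), and in osteochondral progenitors it was higher in RA at 7 dpf (1.24, 1.16 to 1.33). In fibroblast precursors it was at 57.2, 107, 140.0 and 83.5 CPM, with ratios of 2.45 at 4 dpf and 0.778 at 7 dpf. Tenocyte precursors, in which *Thbs1* was at 607, 288, 682 and 478 CPM, had it higher in RA at both times, by 1.12 times (1.04 to 1.21) and 1.66 times (1.56 to 1.76). Myeloid cells held 68.7%, 30.6%, 63.7% and 20.6% of all *Thbs1* UMIs. *Thbs2* varied least of the 9 genes in the sum, at 505, 601, 504 and 579 CPM, and its RA to control ratio was 0.998 (0.973 to 1.02) at 4 dpf and 0.963 (0.952 to 0.975) at 7 dpf. It was highest in tenocyte precursors in all 4 libraries, at 1368, 861, 981 and 1038 CPM.

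**Figure D3:**
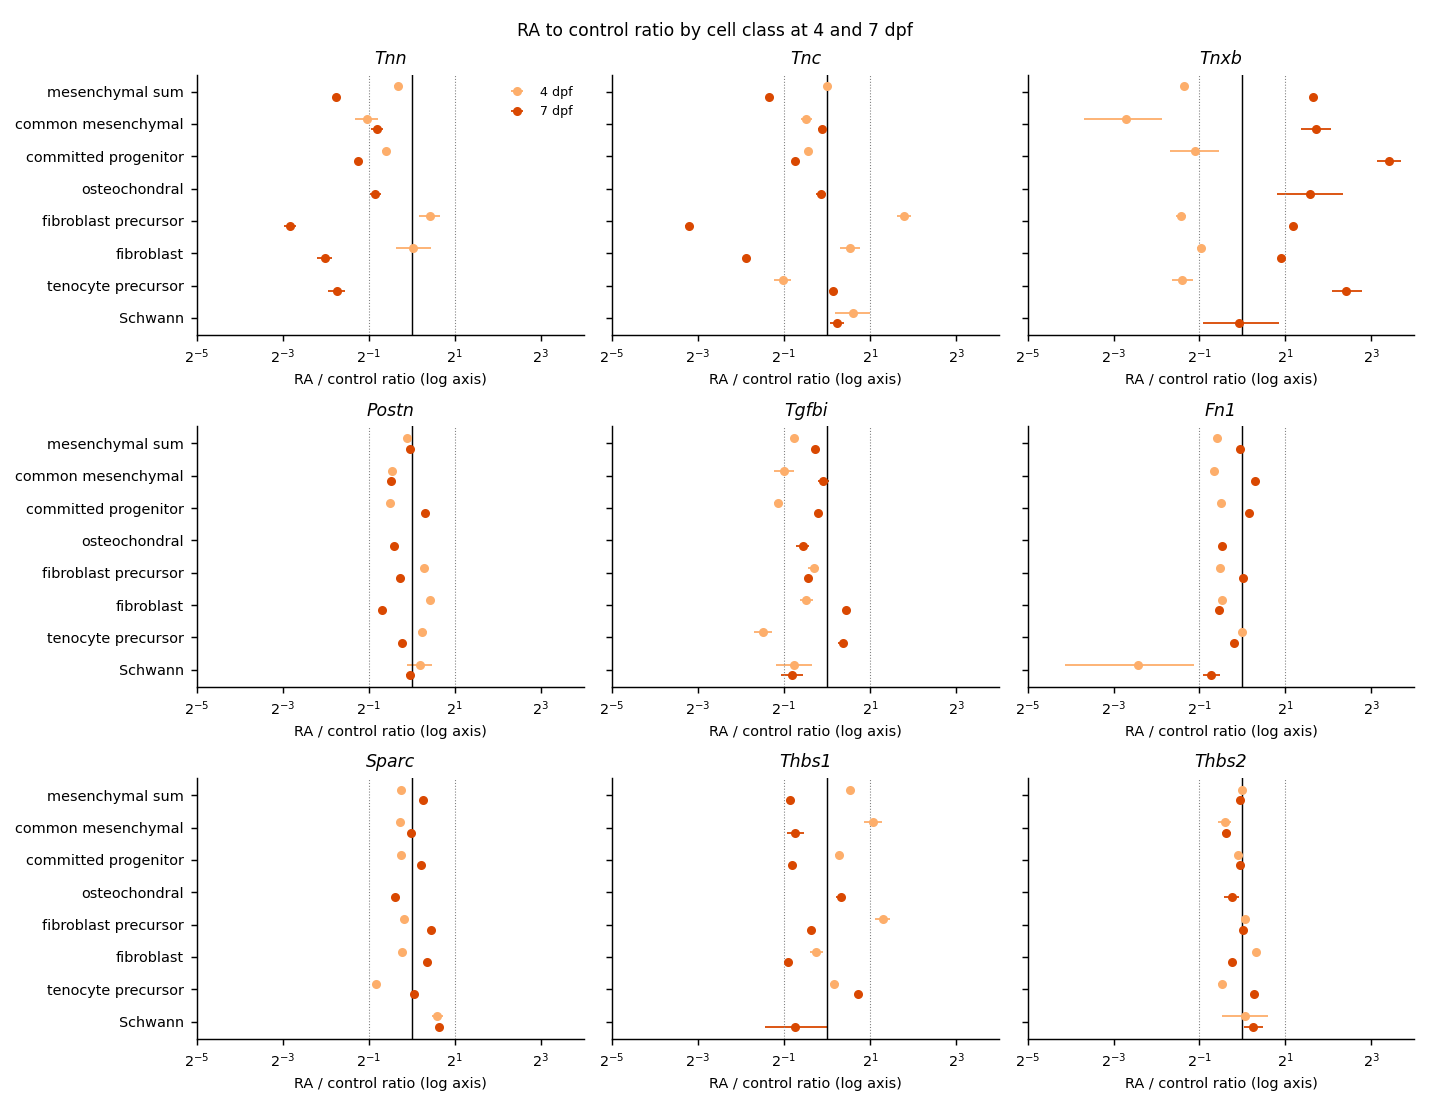
RA to control ratio of each gene by class at 4 and 7 dpf (log axis in steps of 2-fold, with 95% counting intervals), for genes that reached 50 UMIs over the pair of libraries. Classes are from integrated libraries. At 7 dpf the *Tnn* points lie at 0.141 to 0.568 in every class shown, and those of *Tnxb* at 1.87 to 10.6 in all classes but Schwann-like cells, at 0.952. Without integration (not drawn) the 7 dpf log2 ratio in fibroblasts was -0.10 for *Tnn* and -0.14 for *Tnxb*, and 0.20 for *Tnxb* in committed progenitors.

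Tenocyte precursors parted from the mesenchymal classes in several genes. *Tnn* was at 4.04, 128, 0.580 and 38.1 CPM there. The 4 dpf levels were low, from 12 UMIs in control_4d and 1 in RA_4d, beside 3.19 and 3.31 CPM in the shallower T or NK-like cells. The 7 dpf levels lay above those of T or NK-like cells. *Tnxb* went the other way in control, at 259.7 CPM at 4 dpf and 15.01 CPM at 7 dpf, and was at 98.5 and 80.0 CPM in RA. *Tnc* was at 331, 326, 162 and 359.8 CPM, so the RA library was the lower one at 4 dpf (ratio 0.490, 0.428 to 0.560) and 1.10 times control at 7 dpf (1.04 to 1.17), where *Tnc* of the mesenchymal sum was at 0.395 times control. *Postn* in tenocyte precursors was at 600.2, 2431, 712 and 2079 CPM, higher at 7 dpf in both conditions. *Sparc* was at 11064, 10061, 6216 and 10378 CPM, with RA_4d standing below the other libraries.

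Schwann-like cells, the glia of peripheral nerve, expressed *Tnc* at 247, 411, 373 and 479.7 CPM, above their control in RA at both times, by 1.51 times (1.14 to 2.00) and 1.17 times (1.04 to 1.31). Thinned shares of cells with *Tnc* were 34.5%, 53.0%, 25% and 54.6% in Schwann-like cells (median depth 11034.5 to 16753 UMIs), beside 2.2%, 5.0%, 0% and 4.5% in T or NK-like cells. *Tnn* there was at 2.13, 19.3, 3.92 and 6.42 CPM, near the levels of T or NK-like cells, and had under 50 UMIs over both 7 dpf libraries. *Thbs1* was at 36.2, 29.5, 0 and 17.7 CPM. The RA_4d value rests on 20 cells, in which 3 UMIs would have been 11.8 CPM, and its interval reached up to 14.5 CPM. *Sparc* was at 2050.3, 3078, 3107 and 4807 CPM, higher in RA at both times.

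Counted class by class at 7 dpf with integration, 11 of 62 pairs of a gene and a class differed at least 2-fold between RA and control. The genes were *Tnxb* in common mesenchymal cells (background 3.72% of genes in either direction), *Tnn* and *Tnxb* in committed progenitors (2.79%), *Tnxb* in osteochondral progenitors (2.78%, taken against 3.93 CPM in control_7d, below the 6.49 CPM of T or NK-like cells), *Tnn*, *Tnc* and *Tnxb* in fibroblast precursors (3.83%), *Tnn* and *Tnc* in fibroblasts (2.64%), *Tnn* and *Tnxb* in tenocyte precursors (2.38%), and none of the 8 genes with enough UMIs in Schwann-like cells (5.78%). With integration, all 11 pairs belonged to the tenascins, and none to the other 6 genes. With called doublets left out the count was 12, and the genes of those pairs are not listed here. Without integration 8 of 61 pairs differed at least 2-fold. Not all of those 8 were among the 11, several of which passed with integration only. The genes of the 8 are not listed here, so whether all were tenascins is not shown. No background share is given for that arrangement.

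**Figure D4:**
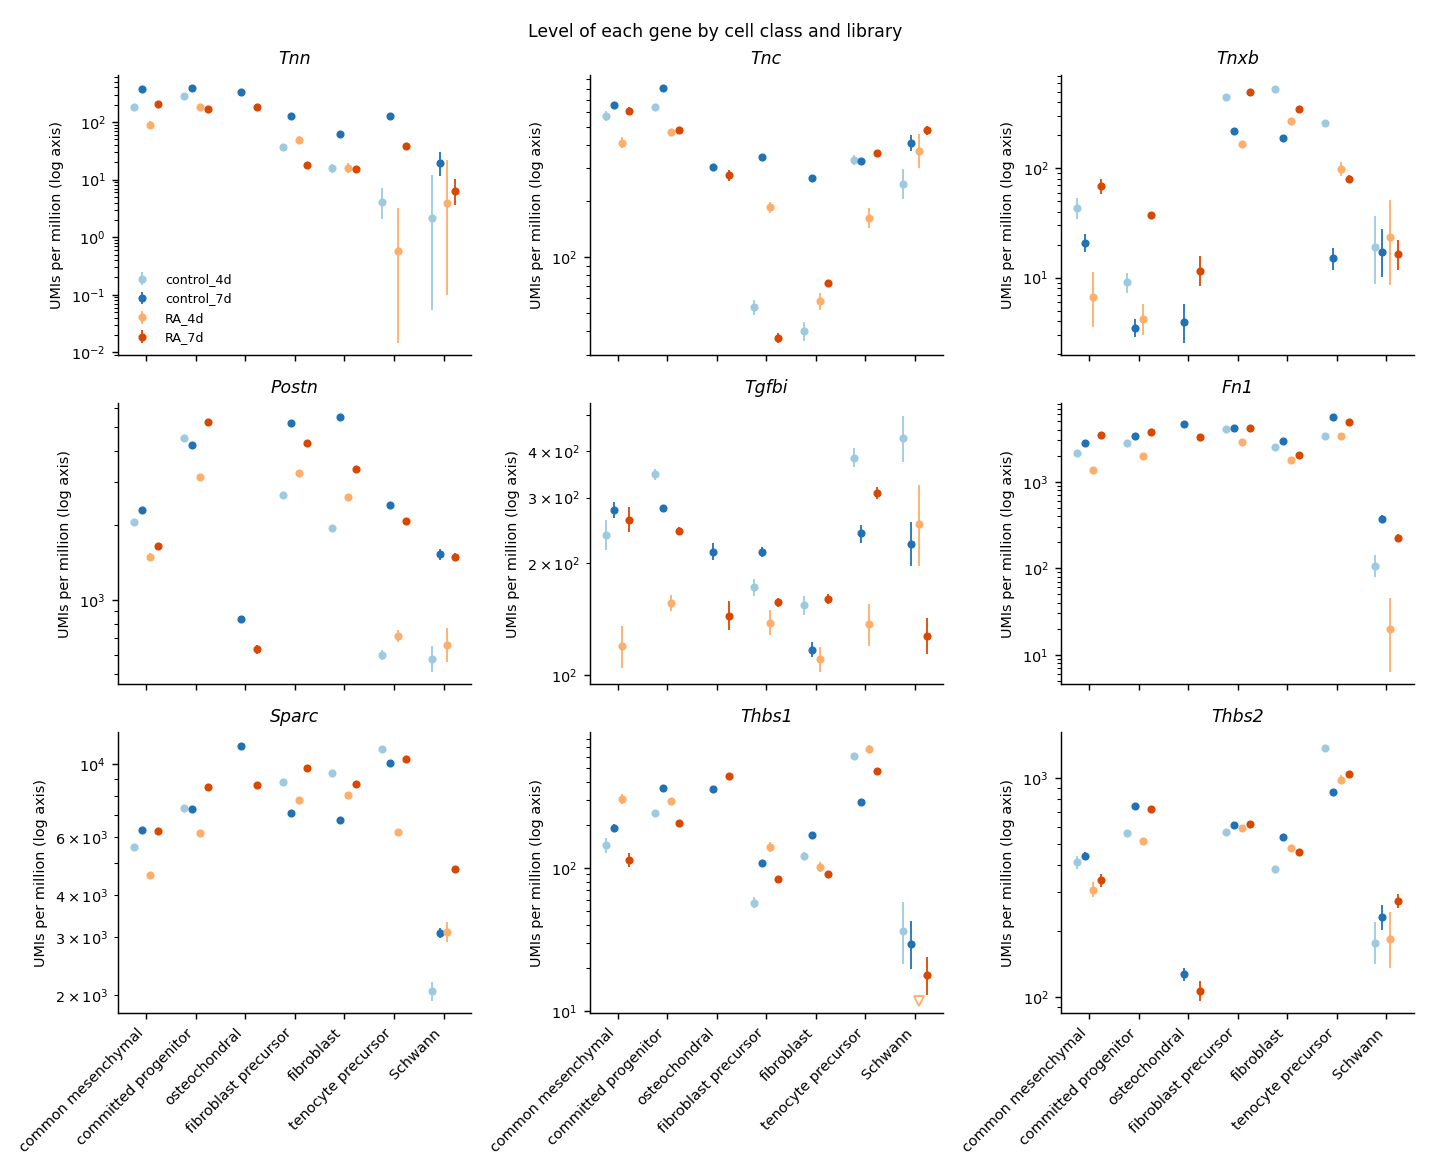
Level of each gene (CPM, log axis, 95% counting intervals) by class in the 4 libraries. The open triangle marks the level of 3 UMIs for *Thbs1* in Schwann-like cells of RA_4d, where no UMI was seen. In each library *Tnn* and *Tnc* are highest in common mesenchymal or committed cells, *Tnxb* in fibroblast precursors or fibroblasts, and *Thbs2* in tenocyte precursors.

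The order of the classes by their level over all 4 libraries pools libraries that hold them in different shares. *Tnn* ran from osteochondral progenitors (279 CPM, measured at 7 dpf and highest in 0 libraries), committed progenitors (271, highest in 3) and common mesenchymal cells (259.8) to tenocyte precursors (54.8), fibroblast precursors (52.8), fibroblasts (28.3) and Schwann-like cells (8.81). *Tnc* ran from committed progenitors (624 CPM) and common mesenchymal cells (591) over Schwann-like cells (431) and tenocyte precursors (326) to fibroblasts (121). *Tnxb* ran from fibroblast precursors (388 CPM) and fibroblasts (320.5) to tenocyte precursors (92.8), with all other classes at or below 32.1 CPM. For these 3 genes the ranges over libraries of all neighbours in the order overlapped. *Postn* was highest in committed progenitors (4524 CPM, highest in 2 libraries), and *Fn1*, *Thbs1* and *Thbs2* in tenocyte precursors (4742, 464 and 1036 CPM), which stood highest in 3, 3 and 4 libraries. *Tgfbi* was highest in tenocyte precursors over all libraries (285 CPM) but in 1 library alone, while Schwann-like cells stood highest in 2, at 432 CPM in control_4d and 255 CPM in RA_4d. *Sparc* was highest in osteochondral progenitors over all libraries (10352 CPM) but in 1 library alone, while tenocyte precursors stood highest in 2. Neighbours whose library ranges did not overlap were found for *Fn1* between fibroblasts (2311 CPM) and Schwann-like cells (235), for *Thbs1* between fibroblast precursors (90.7) and Schwann-like cells (21.4), and for *Thbs2* at 4 places, the first between tenocyte precursors (1036) and committed progenitors (688).

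**Figure D5:**
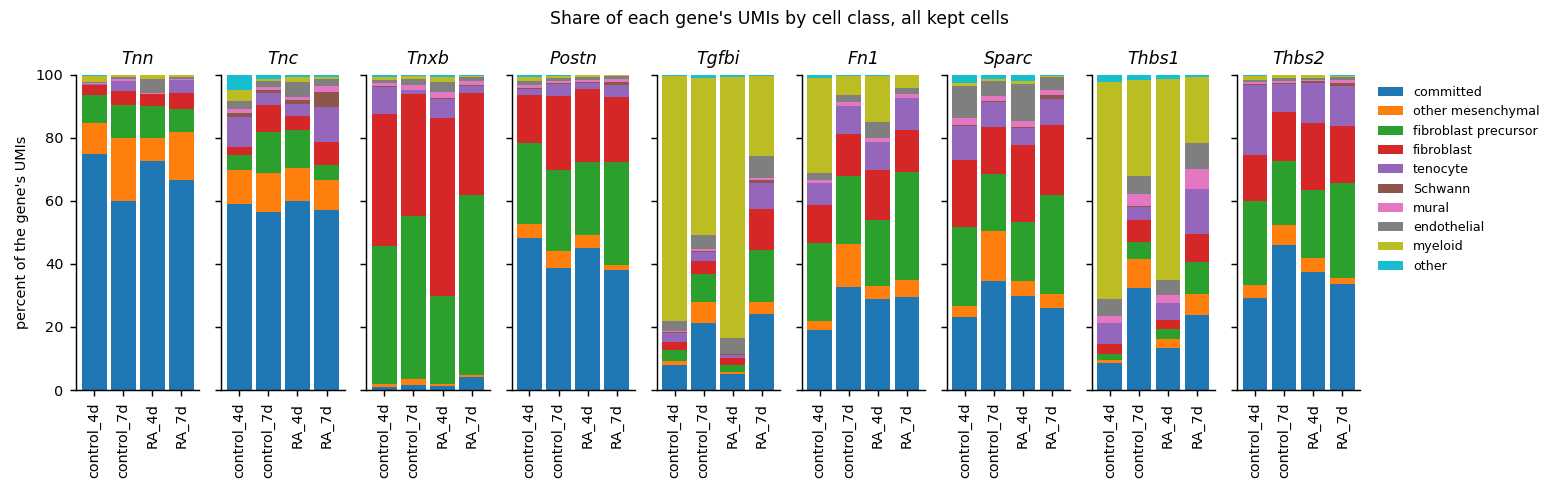
Share of all UMIs of each gene by the class of cell that held them (percent, stacked to 100), in each library. Committed progenitors hold 74.8%, 60.0%, 72.7% and 66.6% of *Tnn* UMIs, whereas myeloid cells hold 77.7%, 49.6%, 82.6% and 25.1% of *Tgfbi* UMIs.

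Over the whole callus, committed progenitors held 59.1%, 56.4%, 59.8% and 57.1% of *Tnc* UMIs, a share that hardly moved between libraries. Fibroblast precursors and fibroblasts held 43.6% and 42.0% of *Tnxb* UMIs in control_4d, 51.8% and 38.6% in control_7d, 27.8% and 56.6% in RA_4d, and 57.0% and 32.2% in RA_7d. *Fn1* came from myeloid cells for 30.3%, 5.99%, 14.5% and 4.05% of its UMIs. A share of all UMIs follows the number of cells of each class in the library as well as their level.

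Of the genes that go with these proteins, 14 receptors (integrin subunits, *Cd47*, *Cd36*, *Sdc4*, *Ddr2* and *Stab1*) and 33 further matrix genes were followed in the mesenchymal sum. At 7 dpf, none of the 14 receptors was 2-fold apart, with log2 ratios from -0.50 to 0.66. Of the 31 matrix genes with enough UMIs, 2 were higher and 3 lower in RA, where 1.70% and 1.24% of 17155 genes were. Their median log2 ratio was 0.13. These lists were chosen with earlier results of these data known, so the counts are given as a description. *Efemp1*, a fibulin of elastic tissue, was at 178, 59.7, 146 and 208 CPM, and *Fbln1*, another fibulin, at 111, 69.2, 139 and 150 CPM. Both were lowest in control_7d. *Spp1* (osteopontin) was at 299.6, 706, 464 and 293 CPM, *Col12a1*, a fibril-associated collagen and itself a marker used to name committed progenitors, at 384, 855, 456 and 374 CPM, and *Smoc1* at 26.1, 34.6, 34.6 and 10.9 CPM. *Spp1* and *Col12a1* were highest in control_7d, as *Tnn* and *Tnc* were. Over all libraries *Spp1* was at 3729 CPM in osteochondral progenitors and 567 CPM in committed progenitors. Osteochondral progenitors held 0.1%, 8.3%, 0% and 3.6% of mesenchymal UMIs, and their part in the *Spp1* values was not tested. At 4 dpf, 1 receptor (*Itgb3*, 27.7 CPM in control and 12.9 in RA) and 1 matrix gene (*Thbs3*, 167 and 69.7 CPM) were at least 2-fold lower in RA, and none was higher. Over 13989 genes at 4 dpf, 0.944% were lower and 0.765% higher.

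The genes most like each one over 26 points, the classes with enough cells in each library, were sought among 18092 genes by Pearson's r of levels. The points share libraries and classes, and r is given as a description. For *Tnn* these were *Gm10076* (0.948), *Nme2* (0.947) and *Tmem167* (0.916), the first of which is a predicted gene whose reads may be shared with a near-identical copy. For *Tnc* they were *Ncam1* (0.895), *Pkp4* (0.885) and *Prr7* (0.841), of which *Ncam1* was used to name committed progenitors. For *Tnxb* they were *Tor1aip1* (0.886), *Xpnpep2* (0.879) and *Itga2b* (0.876). *Postn* was nearest to *Fank1* (0.896), *Sparc* to *Lum* (0.916), which encodes a collagen-binding proteoglycan, *Fn1* to *Tmem45a* (0.971), *Thbs1* to *Ptprd* (0.957) and *Thbs2* to *Adgrl2* (0.934). For *Tgfbi* the highest value was 0.661 (*Gm26781*). Some of these genes were sparse, with 72 UMIs over all 26 points for *Gm26781*, 654 for *Xpnpep2* and 854 for *Fank1*.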

How the data were processed

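The authors deposited a table of raw UMI counts (genes by cell barcodes) for each of 4 libraries of fracture callus, made with Cell Ranger 7.0.1 (submitters' processing notes) on mm10 from Chromium Single Cell 3′ v3.1 libraries. The values were whole numbers for 32285 genes, and 0 columns belonged to no sample. Cells with 4000 to 50000 UMIs, 2000 to 7000 features and at most 8% mitochondrial UMIs were kept, as in the paper's methods, which left 25479 of 34038 barcodes and 83405494 to 156567619 UMIs per library. Scrublet (scanpy 1.11.5) called 609 doublets, which stayed in except in an alternative.

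Libraries were integrated (2000 variable genes less the 8 members among them, 30 anchor dimensions, 15 components, resolution 0.5) in Seurat 5.3.0 under R 4.3.3, not the study's Seurat version. Clusters were named from marker lists by a mean log2 score of at least 1 with a lead of 0.35, thresholds set after clusters had been seen, and 1 cluster of osteochondral and cycling cells was split at resolution 0.05. A class here need not hold the cells of the cluster so named in the paper.

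UMIs were summed per class and library and given as CPM, with exact Poisson intervals for levels, exact conditional intervals for ratios and Clopper-Pearson intervals for shares. Log2 ratios had 1 CPM added, and thinned cells held 4000 UMIs each. Cells are not replicates and each group had 1 library, so no test was made. On simulated counts, changed genes above a set level were all called in the direction put in. The changes put in were well above the 2-fold limit, so the rule was not checked on changes near it. Intervals of unchanged genes held the true ratio at close to the stated rate. The simulated counts carried Poisson error only, with no differences between animals or libraries beyond it. Likeness was Pearson's r of log2 levels scaled over points. Gene positions are from GENCODE M21 on GRCm38, and sequences from RefSeq, of which 1 is not reported here. Further software was Python 3.11.15, pandas 2.3.3 for tables, numpy 2.4.6 and scipy 1.17.1 for sums and intervals, and matplotlib 3.10.9 for figures.

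The genes, marker lists and lists of related genes were chosen with earlier results of these data known. Named genes were the 9 members, up to 5 related genes with the largest log2 ratio in size at 7 dpf, and the 3 genes most like each member. *Itgb3* and *Thbs3* and the genes that lead a cluster were named after their values were seen. Alternatives were TMM scaling, 10 CPM added, a minimum of 10 UMIs per gene, tenocyte precursors added, classes weighted equally, thinned cells, doublets left out, members kept in clustering, no integration, resolutions of 0.25 and 1, a marker gate in place of clusters, and looser cell limits with that gate. Leaving out a small fibroblast-like cluster, or the cycling and osteochondral cells, was added after seeing the data.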

Additional observations from a re-analysis of the deposited data

Results flagged for a closer look

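*Tnxb*, *Sparc* and *Thbs1* stood on opposite sides of control at 4 and 7 dpf in the mesenchymal sum, with 1 library on each side, and for each the difference between the time points was not tested. The RA to control ratio of *Tnxb* was 0.387 at 4 dpf and 3.09 at 7 dpf. That of *Sparc* was 0.838 and 1.203, and that of *Thbs1* was 1.44 and 0.550. *Tnxb* and *Thbs1* kept these directions under all 15 alternatives at both times, and so did *Sparc*.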

How the results depend on the processing

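With 1 library per group, no replicate could be left out. No paired analysis was possible because each group has 1 library. In the mesenchymal sum over 15 alternatives, the log2 ratio of RA_7d to control_7d ran from -1.85 to -1.52 for *Tnn*, -1.47 to -1.11 for *Tnc* and 1.49 to 1.80 for *Tnxb*, and that of *Tnxb* at 4 dpf from -1.47 to -1.10. The sign differed from the reported one in 8 of 135 values for RA_4d against control_4d, 5 of 135 for RA_7d against control_7d, 4 of 135 for control over time and 0 of 135 for RA over time. For control over time, the count of genes at least 2-fold apart was 2, and became 1 with TMM scaling, 1 with 10 CPM added, 1 at resolution 1 and 0 with looser cell limits and the marker gate, where the log2 ratio of *Tnxb* was -0.99 and that of *Tnn* 0.88. *Tnc* against control_4d ran from -0.55 (looser limits with the gate) to 0.34 (classes weighted equally) in RA_4d and from -0.06 to 1.47 under the same 2 in control_7d. Of the 9 genes, 2 (*Tnc* and *Postn*) were highest in committed progenitors, 1 with thinned cells and 1 at resolution 1, while resolution 0.25 gave no such class and no value. The median share of committed progenitors of control_7d with a UMI of a gene was 81.9% thinned and 98.6% unthinned, since deeper cells show more genes. The cause of the other changes was not tested. In Schwann-like cells of RA_4d, 20 cells were summed, which limits the precision of their levels.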
